A study of Mus musculus with 10 samples.

Results

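The Ifi200 family, also called the PYHIN family, was followed in CD4 CD8 double-positive (DP) thymocytes that lacked the transcription factors E2A, HEB or both. Its members were chosen by gene symbol: Aim2, Mnda, Mndal, Pyhin1 and the symbols from Ifi200 to Ifi219 were sought among probe sets that carry a single gene symbol. This gave 10 genes of the 19937 named on the array: Aim2, Ifi202b, Ifi203, Ifi205, Ifi206, Ifi207, Ifi208, Ifi209, Ifi213 and Ifi214. Each was measured by 1 probe set, so the choice of the probe set with the highest mean intensity over the 10 arrays left no alternative for any member. The family was singled out with its rise in cells lacking both factors already known. Its levels and calls below are therefore a description and give no independent support to that rise.

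The study sorted DP cells by CD4 and CD8 staining from mice aged 8 weeks, 1 mouse per array, at over 98% purity and with about 1000000 cells per sample. Every mouse carried Cd4-cre, a Cre recombinase driven by the Cd4 promoter, including the controls. The groups were wild-type cd4-cre+ (WT, n = 3), E2Aflox/flox Cd4-cre+ (E2AKO, n = 2), HEBflox/flox cd4-cre+ (HEBKO, n = 2) and E2Aflox/flox HEBflox/flox cd4-cre+ (DKO, n = 3). The labels name neither strain nor sex, and where sex serves as a covariate below it was read from the arrays. Values are log2 of the deposited RMA intensity, and no level of one gene is set against that of another because probe sets differ in brightness. The 40th percentile of an array lay between 6.03 and 6.13 on the log2 scale, and the 13138 genes that reached it in 2 or more arrays were tested. A probe set below that line is called dim here, and a difference measured against a dim group may understate the true change.

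Ifi200 proteins combine, in varying arrangements, a pyrin domain that pairs with other pyrin domains and a HIN domain that binds DNA. AIM2 senses double-stranded DNA in the cytosol and assembles the inflammasome through the adaptor ASC, the product of Pycard, and caspase-1. Other members act in the nucleus on transcription and cell growth, and many are induced by interferon. E2A and HEB are basic helix-loop-helix proteins that bind E box sequences and together regulate the genes of the DP stage.

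In the RefSeq gene order of GRCm38.p6 the 10 genes form 1 cluster on chromosome 1, running Aim2, Ifi206, Ifi214, Ifi213, Ifi209, Ifi208, Ifi207, Ifi203, Ifi202b and Ifi205. Ifi204, Ifi203-ps, Mndal and Ifi211 lie between Ifi207 and Ifi203 and are not members here. A probe set shared by Ifi211 and Ifi204 was dim in all 10 arrays, between 3.85 and 4.06. The 250 bases before the annotated starts of Ifi206, Ifi214, Ifi213, Ifi209 and Ifi208, the members with the largest rises in DKO cells, are printed from RefSeq (GRCm38.p6) with those of Ifi207, a neighbour that stayed dim. Each reads 5′ to 3′ on the strand of its gene. Capitals mark matches to the interferon-stimulated response element core and to the E box (CANNTG).
Ifi206, chr1:173491319-173491568, minus strand: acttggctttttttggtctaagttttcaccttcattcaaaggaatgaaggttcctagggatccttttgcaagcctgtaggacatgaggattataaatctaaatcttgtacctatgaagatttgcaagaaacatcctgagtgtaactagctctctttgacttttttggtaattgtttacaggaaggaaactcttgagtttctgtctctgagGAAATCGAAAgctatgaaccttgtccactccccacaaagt
Ifi214, chr1:173535958-173536207, minus strand: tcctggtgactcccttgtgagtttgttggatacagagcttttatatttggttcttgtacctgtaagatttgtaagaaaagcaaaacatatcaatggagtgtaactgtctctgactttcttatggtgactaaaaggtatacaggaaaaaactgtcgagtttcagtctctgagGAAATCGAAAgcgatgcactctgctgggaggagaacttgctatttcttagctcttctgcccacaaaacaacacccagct
Ifi213, chr1:173599273-173599522, minus strand: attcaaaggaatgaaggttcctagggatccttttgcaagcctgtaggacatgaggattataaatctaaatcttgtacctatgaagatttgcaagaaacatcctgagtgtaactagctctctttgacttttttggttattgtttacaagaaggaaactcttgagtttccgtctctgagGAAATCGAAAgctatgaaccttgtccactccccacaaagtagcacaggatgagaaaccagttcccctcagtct
Ifi209, chr1:173630609-173630858, plus strand: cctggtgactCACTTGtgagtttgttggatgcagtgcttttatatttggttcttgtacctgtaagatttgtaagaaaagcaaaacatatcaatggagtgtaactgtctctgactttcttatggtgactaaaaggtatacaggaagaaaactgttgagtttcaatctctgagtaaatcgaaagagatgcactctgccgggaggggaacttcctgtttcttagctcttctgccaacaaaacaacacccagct
Ifi208, chr1:173673415-173673664, plus strand: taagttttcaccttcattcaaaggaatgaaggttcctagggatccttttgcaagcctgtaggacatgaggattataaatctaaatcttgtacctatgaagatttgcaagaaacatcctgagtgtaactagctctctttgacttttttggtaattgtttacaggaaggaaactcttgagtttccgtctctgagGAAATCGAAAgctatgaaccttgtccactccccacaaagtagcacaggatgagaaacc
Ifi207, chr1:173741810-173742059, minus strand: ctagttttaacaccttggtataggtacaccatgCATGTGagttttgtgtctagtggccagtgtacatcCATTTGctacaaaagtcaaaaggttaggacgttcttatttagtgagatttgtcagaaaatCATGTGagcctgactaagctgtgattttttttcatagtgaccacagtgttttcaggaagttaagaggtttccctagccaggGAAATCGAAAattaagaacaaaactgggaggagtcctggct

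The promoters fell into close pairs and triplets. Ifi206 and Ifi208 were identical at 231 of the 232 aligned positions (99.6%), Ifi213 and Ifi208 at 233 of 235 (99.1%), and Ifi214 and Ifi209 at 237 of 250 (94.8%). Ifi206 against Ifi214 reached 63.9%. Ifi207 was closest to Ifi205, at 87.3% of 157 positions, and Ifi207 against Ifi206 gave 56% of 273.

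The interferon-stimulated response element core, searched on both strands, occurred in 7 of the 11 promoters of the family (Ifi203 has 2 annotated starts), against 2.98% of all 32851 RefSeq promoters of the same length. Counting -1 as the last base before the start, its first base lay at -40 in Ifi206, -79 in Ifi214, -73 in Ifi213, -58 in Ifi208, -41 in Ifi207, -35 in the start 1 promoter of Ifi203 and -134 in Ifi205. Ifi209 has no match: aligned with Ifi214, its stretch differs by the single substitution G1T, counted from the first base of the core in Ifi214. The string AAATCGAAA, chosen after the promoters were seen, was in 7 of the 11 family promoters, Ifi209 included, and in 35 promoters in all (0.107%). Ifi207 and Ifi205 hold the core as well and were dim in every array.

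E boxes were present in 66.2% of all promoters and in 6 of the 11 of the family. The form CAGCTG (13% of all promoters) and the form CACCTG (17.2%), both known to be bound by E proteins, were in 0 of the 11. Among the promoters of the 5 members with the largest rises, Ifi209 holds an E box at -240, and Ifi206, Ifi214, Ifi213 and Ifi208 hold none in this window. The STAT site TTCNNNGAA was in 7.02% of all promoters and, within the family, in that of Ifi202b. These matches describe letters in a short window, and no binding was measured here.

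**Figure D1:**
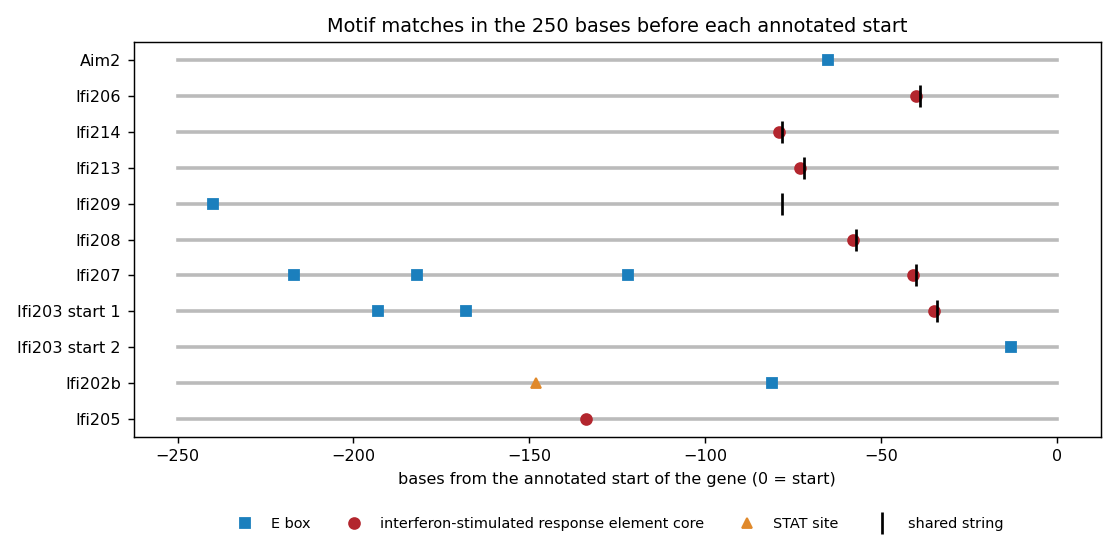
Positions of motif matches in the 250 bases before each annotated start of the 10 family genes; the x axis is the distance from the start in bases. The interferon-stimulated response element core (red) and the shared string (black bar), which lies inside it, mark the same stretch in Ifi206, Ifi214, Ifi213, Ifi208, Ifi207 and the start 1 promoter of Ifi203, and Ifi209 holds the string alone.

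The targeted genes and the stage of the cells were examined first. Tcf3, which encodes E2A, read 9.23 and 9.12 in E2AKO and 8.93 to 9.29 in DKO against 9.63 to 9.85 in WT. Tcf12, which encodes HEB, read 11.15 and 11.48 in HEBKO and 10.68 to 10.73 in DKO against 11.74 to 11.91 in WT. Each targeted gene thus read below all WT arrays wherever it was floxed, although these probe sets cover whole transcripts and the deleted exons are not given in the sources used here. Of 10 DP markers, 9 were on the array and none was dim in any WT array, Cd4, Cd8a, Rag1 and Rag2 among them.

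In DKO cells, lacking both factors, 6 of the 10 family genes rose and none fell. Ifi206, Ifi214, Ifi208, Ifi213 and Ifi209 rose between 2.05-fold and 6.2-fold over WT, and Ifi203 rose 1.6-fold. Aim2, the inflammasome sensor, gave 0.09 ± 0.17 (SE) on the log2 scale and was not called (limma adjusted p = 0.79). Ifi207, Ifi202b and Ifi205 were dim in all 10 arrays. In limma with Benjamini-Hochberg adjustment, 6 of the 7 tested members were called higher, against 8.18% of the 13138 genes tested. Ifi214 and Ifi213 passed the filter only through the DKO arrays, so the count over all 10 genes without the filter is given as well: 6 of 10, against 4.98% of 19937 genes. Without the filter, the median log2 difference of all 10 members was 0.86, and that of all 19937 genes was -0.028. Over the 13138 tested genes the median was -0.01.

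Ifi206 showed the widest rise. Its log2 intensity was 5.98, 6.30 and 6.09 in WT and 6.08 and 6.53 in E2AKO, while HEBKO gave 6.51 and 6.27, and DKO gave 9.23, 8.40 and 8.63. The 7 arrays with at least 1 of the factors lay together, 2 of the 3 WT arrays were dim, and all 3 DKO arrays stood apart above them. The difference from WT was 2.63 ± 0.19 (SE), or 6.2-fold with a 95% interval of 4.63 to 8.31 (limma adjusted p = 6.04e-06).

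Ifi214 was dim in every array that kept a factor. It read 4.57, 4.20 and 4.52 in WT and 4.61 and 4.55 in E2AKO, while HEBKO gave 4.66 and 4.43, and DKO gave 6.52, 6.22 and 6.40. WT, E2AKO and HEBKO overlapped, and the DKO arrays alone passed the 40th percentile. Its difference of 1.94 ± 0.12, 3.85-fold (3.19 to 4.64, limma adjusted p = 2.24e-06), may therefore understate the change. Signal shared with related transcripts could also add to it, which was not tested.

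Ifi208 and Ifi213, formerly named Pydc3 and Pydc4 for their pyrin domain, share the promoter type of Ifi206. Ifi208 read 6.12, 6.59 and 6.42 in WT and 5.38 and 6.31 in E2AKO, while HEBKO gave 5.89 and 6.27, and DKO gave 8.41, 8.05 and 7.90. The DKO arrays lay above all others, and E2AKO 1 was the lowest of the 10. The rise over WT was 1.75 ± 0.22, or 3.36-fold (2.39 to 4.71, limma adjusted p = 0.000305).

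Ifi213 read 6.09, 6.06 and 5.70 in WT and 5.54 and 5.37 in E2AKO, while HEBKO gave 5.55 and 6.03, and DKO gave 7.74, 6.92 and 6.96. Of the 7 arrays outside DKO, 6 were dim, and none reached the lowest DKO array. The rise was 1.26 ± 0.21, or 2.39-fold (1.75 to 3.27, limma adjusted p = 0.00182).

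Ifi209, the mouse gene also listed as Pyhin1, was never dim. It read 9.70, 9.90 and 9.58 in WT and 9.53 and 9.93 in E2AKO, while HEBKO gave 9.69 and 9.96, and DKO gave 10.85, 10.72 and 10.70. The spread within each genotype was small beside the step to DKO, which was 1.03 ± 0.13, or 2.05-fold (1.68 to 2.49, limma adjusted p = 0.000264).

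Ifi203, at the other end of the cluster, moved least among the risers. It read 7.80, 8.42 and 8.41 in WT and 8.30 and 8.36 in E2AKO, while HEBKO gave 8.18 and 8.23, and DKO gave 9.23, 8.64 and 8.80. WT 1 was the lowest array and DKO 1 the highest. The difference was 0.68 ± 0.18, or 1.6-fold (1.23 to 2.1, limma adjusted p = 0.0248). It was no longer called without WT 1 (0.48, adjusted p = 0.0753), without DKO 1 (0.52, 0.0831) or without DKO 3 (0.73, 0.0567).

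Aim2 read 6.38, 6.86 and 6.87 in WT and 6.15 and 6.76 in E2AKO, while HEBKO gave 6.35 and 6.37, and DKO gave 6.76, 6.69 and 6.94. The DKO arrays overlapped those of WT and E2AKO and lay above both HEBKO arrays, and the 95% interval of the difference between DKO and WT, -0.27 to 0.46, leaves room for a modest change in either direction. Of the 3 dim members, Ifi202b, whose protein lacks a pyrin domain and can oppose AIM2, lay between 3.62 and 3.90. Ifi207 lay between 4.26 and 4.69 and Ifi205 between 3.47 and 3.71. Without the filter their DKO differences were 0.08 ± 0.09, -0.09 ± 0.13 and -0.01 ± 0.10 (adjusted p = 0.732, 0.79 and 0.975).

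**Figure D2:**
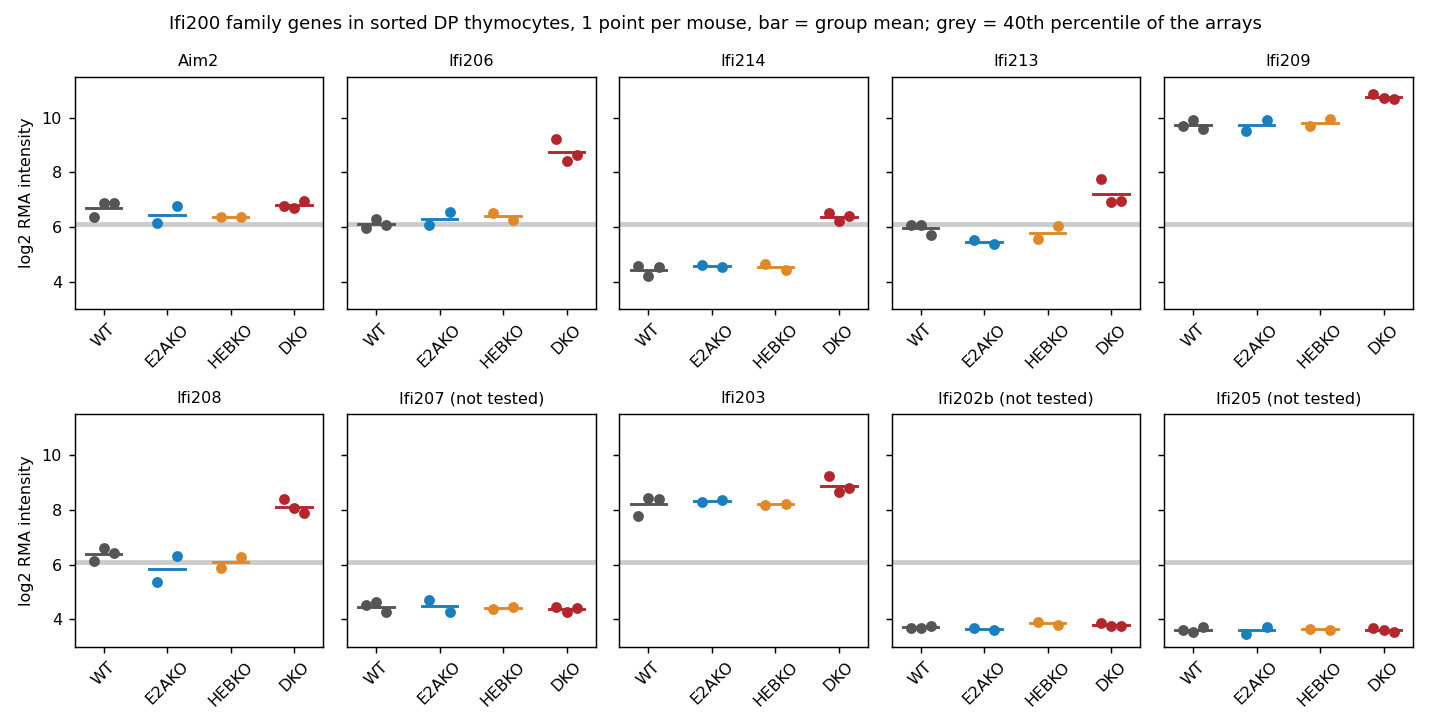
Log2 RMA intensity of the 10 family genes, 1 point per mouse, with a bar at each group mean and the 40th percentile of the arrays in grey. All 3 DKO arrays lie above all 7 other arrays for Ifi206, Ifi214, Ifi213, Ifi209, Ifi208 and Ifi203, and the DKO and WT arrays overlap for Aim2, Ifi207, Ifi202b and Ifi205.

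All 3 DKO arrays exceeded all 7 others in 6 of the 10 members, against 5.02% of the 19937 genes. The family probe sets can share signal where transcripts are closely related, as the near-identical promoters of Ifi206, Ifi208 and Ifi213 show for their flanks. The probe sequences were not used here, so how much of each rise comes from a relative was not tested. In bulk samples, fewer cells of a type and less RNA per cell cannot be told apart.

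Loss of a single factor left no family gene called. The targeted genes were not called in this fit either. Tcf12 gave -0.52 in HEBKO (limma adjusted p = 0.0657) and Tcf3 gave -0.54 in E2AKO (0.998). A missing call is therefore not evidence of no change. In HEBKO 0 of 7 tested members changed in either direction, against 0.906% of all genes tested, and none had an unadjusted limma p under 0.05. Differences ran from -0.35 ± 0.19 for Aim2 (adjusted p = 0.384) to 0.27 ± 0.22 for Ifi206 (0.577). For the risers the 95% intervals of the HEBKO difference ended at 0.74 for Ifi206, 0.41 for Ifi214, 0.35 for Ifi213, 0.42 for Ifi209, 0.25 for Ifi208 and 0.43 for Ifi203. With 2 HEBKO mice, a rise smaller than these bounds could have been missed.

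In E2AKO 0 of 7 were called, and the background was 0% of all genes. No member had an unadjusted limma p under 0.05 in this fit. The lowest values were for Ifi208, at -0.53 ± 0.25 (unadjusted p = 0.0555), and Ifi213, at -0.50 ± 0.23 (unadjusted p = 0.0543). Fitted without the filter their unadjusted p-values were 0.0484 and 0.0474. Both have an adjusted p of 0.998 with the filter, and E2AKO 1 alone was low for Ifi208. The upper ends of the E2AKO intervals were 0.66 for Ifi206, 0.45 for Ifi214, 0.01 for Ifi213, 0.33 for Ifi209, 0.01 for Ifi208 and 0.55 for Ifi203.

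DKO cells were then set against each single knockout. Against HEBKO, 5 of the 7 tested members were higher (2.15% of all genes), and without the filter 5 of 10 (1.33%). The differences were 2.36 for Ifi206 (limma adjusted p = 9.68e-05), 2.04 for Ifi208 (0.000869), 1.83 for Ifi214 (2.98e-05), 1.42 for Ifi213 (0.0056) and 0.93 for Ifi209 (0.00408). Ifi203, at 0.68 (adjusted p = 0.0905), and Aim2, at 0.44 (0.277), were not called. Their unadjusted limma p-values were 0.00497 and 0.0369. Ifi213 lost this call without HEBKO 1.

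Against E2AKO the 5 called members were again Ifi206, Ifi208, Ifi214, Ifi213 and Ifi209, while 5.10% of all genes were called higher. Without the filter this was 5 of 10, against 3.16%. Their differences were 2.44, 2.28, 1.80, 1.75 and 1.02, with limma adjusted p-values between 1.6e-05 and 0.000921. The comparisons share the DKO arrays. HEBKO and E2AKO themselves did not separate for any member: 0 of 7 were called, the smallest adjusted p was 0.571, and 0.0381% of all genes were called. None of the 7 members had an unadjusted limma p under 0.05 between these knockouts.

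The interaction asked whether the effect of losing one factor changed with the presence of the other, as DKO minus E2AKO minus HEBKO plus WT on the log2 scale. It was called for 4 of the 7 tested members, all positive, against 0.510% of genes called positive. Without the filter it was 4 of 10, against 0.311%. The estimates were 2.58 ± 0.35 for Ifi208 (limma adjusted p = 0.00641), 2.17 ± 0.31 for Ifi206 (0.00754), 1.91 ± 0.33 for Ifi213 (0.0215) and 1.68 ± 0.19 for Ifi214 (0.00224). For these genes the measured rise in cells lacking both factors exceeded the sum of the measured single changes. Ifi214 was dim in all 7 arrays outside DKO and Ifi213 in 6 of them, so their single changes were poorly measured. For Ifi208 and Ifi213 the sum includes drops that were not called, -0.53 and -0.50 in E2AKO and -0.30 and -0.16 in HEBKO.

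Ifi209, at 0.92 ± 0.20 (adjusted p = 0.0858), Aim2, at 0.68 ± 0.26 (0.449), and Ifi203, at 0.56 ± 0.28 (0.625), did not pass. Before adjustment their limma p-values were 0.000757, 0.0235 and 0.0677. Without E2AKO 1 the count fell to 2, Ifi214 and Ifi208, against 0.168% of all genes called positive. Ifi213 also lost its interaction call without WT 1, WT 2, E2AKO 2 or HEBKO 1.

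**Figure D3:**
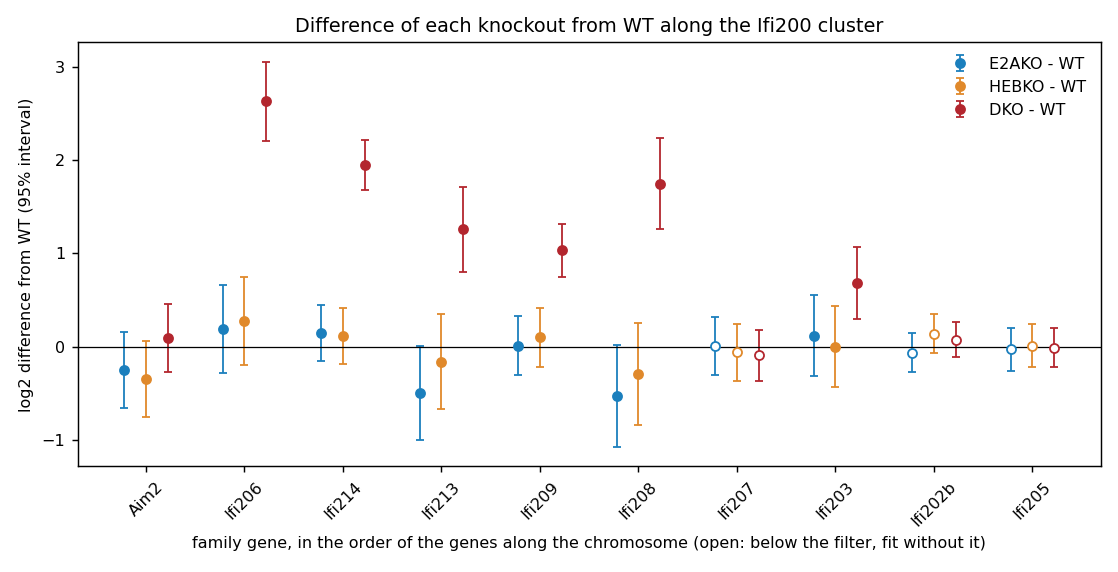
Log2 difference of each knockout from WT with its 95% interval, for the 10 family genes in chromosomal order; open points mark genes below the filter, fitted without it. The DKO intervals clear 0 from Ifi206 to Ifi208 and again at Ifi203, while every single-knockout interval in this plot includes 0.

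The measured genes next to the cluster were too dim for the test, so they cannot show whether the rise stops at its edges. Of the 5 named genes on each side, 8 were on the array: Cadm3, Ackr1, Olfr418 and Fcer1a before it, and Olfr433, Olfr432, Olfr430 and Olfr429 after it. None passed the filter, each being dim in 9 or 10 of the 10 arrays. Without the filter their DKO differences ran from -0.21 to 0.03 with limma adjusted p-values from 0.388 to 0.954. Within the cluster, Aim2 was neither called nor dim, and Ifi206 to Ifi208 were adjacent risers. Ifi207 was dim, Ifi203 rose, and Ifi202b and Ifi205 were dim. Genes that are not members here lie between Ifi207 and Ifi203.

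The same DKO mouse was highest for every riser. DKO 1 was the highest DKO array for 6 of the 6 called members, whereas over all 1075 genes called higher it was highest in 23.9% and DKO 3 in 54.7%. Ifi206 lay 3.11, 2.28 and 2.51 above the WT mean in DKO 1, 2 and 3, and Ifi213 lay 1.79, 0.97 and 1.01 above it. Interferon-stimulated genes had median deviations from the WT mean of 0.45, 0.06 and 0.18 in the same mice, and markers of mature single-positive T cells had 2.61, 1.81 and 2.80. The part of either in the height of DKO 1 was not tested. Without DKO 1, 5 of the 6 members were still called, all but Ifi203, against 6.59% of all genes called higher.

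Pearson correlations between pairs of the 6 risers over the 10 arrays ran from 0.78 (Ifi213 with Ifi203) to 0.98 (Ifi206 with Ifi214). The points share genotype, and correlations within a genotype were not computed. The tested genes outside the family with the closest pattern were picked by the same measure. Ifi214 was followed most closely by Card6, a caspase recruitment domain gene, with r = 0.997, and Card6 rose by 2.84 ± 0.16 in DKO from WT arrays that were all dim (limma adjusted p = 8.28e-07). Ifi206 was closest to Gria3, a glutamate receptor subunit (r = 0.986), Prkch, a protein kinase C (0.984), and Dse (0.981). Prkch (0.987) and Gpr18 (0.986) came next for Ifi214.

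Ifi213 ran with Slfn1 (0.960), Ubl3 (0.953) and Zscan18 (0.952). Ifi209 ran with Slfn2 (0.975), Ltb, a lymphotoxin subunit (0.972), and Trib2 (0.968). The Schlafen genes Slfn1 and Slfn2, known as growth regulators in T cells, rose by 1.85 and 1.33 in DKO (limma adjusted p = 0.000471 and 3.75e-05). Ubl3 was not called, at 0.15 (adjusted p = 0.325).

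Ifi208 ran with Ltb (0.980), Mfng, a Notch-modifying glycosyltransferase (0.967), and Tpst2 (0.964). Ifi203 ran with Samd9l (0.946), Aak1 (0.937) and Arid4a (0.932). In HEBKO none of these genes was called.

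Partner genes of the family were read from lists of known pathway members. Over all genes tested in DKO against WT, 8.18% were called higher and 5.41% lower, which is the background for each count below. Beside Aim2, the inflammasome list of 21 genes had 10 tested members, of which 3 rose and 2 fell in DKO. The median log2 difference was 0.10. Casp1, the caspase that AIM2 activates, was dim in every array, as were Casp4, Il1b, Il18, Nlrp1a, Nlrp1b, Nlrp3, Nlrc4, Naip2 and Naip5. Pycard, which encodes the ASC adaptor, read 9.30, 9.31 and 9.33 in WT against 8.89 and 8.96 in DKO 1 and DKO 2. DKO 3 also lay below every WT array, and the difference was -0.36 ± 0.09 (limma adjusted p = 0.0217), a call lost without WT 3 or any of the 3 DKO arrays. Card6 and Casp8 rose, by 2.84 ± 0.16 and 0.57 ± 0.14 (adjusted p = 0.0199). Nlrc3, a negative regulator of innate signalling, gave 0.44 ± 0.11 (0.0207), and Pstpip1, a pyrin-binding adaptor, fell by 0.56 ± 0.15 (0.0299). The Nlrc3 call was lost without WT 1, DKO 1 or DKO 3 and after renewed quantile normalisation (adjusted p = 0.0520), that of Pstpip1 without WT 2, WT 3 or any DKO array and with sex as a covariate (0.0591), and that of Casp8 without WT 1, WT 3 or DKO 3.

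Of 23 other nucleic acid sensors and nucleases, 17 were tested, 3 rose, 1 fell and the median was 0.12. Cgas, the cytosolic DNA sensor that signals to STING, was dim in every array, with Tlr3, Tlr7 and Unc93b1. Samhd1, an enzyme that degrades deoxynucleoside triphosphates, read 6.09, 6.39 and 5.92 in WT and 8.80, 7.95 and 9.53 in DKO. Its 3 DKO arrays lay above all others, 2.62 ± 0.31 over WT (limma adjusted p = 0.000154), and here DKO 3, not DKO 1, was the highest. Ddx58, the RNA sensor RIG-I, rose by 0.59 ± 0.11 (0.00452), a call lost with DKO 1 and WT 1 left out together (0.0568). Rnaseh2a, a subunit of the RNase that removes ribonucleotides from DNA, gave 0.46 ± 0.12 (0.0298). Xrcc6, the Ku70 subunit of the DNA end-binding complex, fell by 0.60 ± 0.13 (0.0107). The Rnaseh2a and Xrcc6 calls were lost without DKO 3 or WT 3, and that of Rnaseh2a also without WT 1 or DKO 2.

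Below the sensors, 12 signalling genes were tested, 3 rose, none fell and the median was 0.21. Sting1, the adaptor through which cytosolic DNA signals to interferon, read 7.88, 7.90 and 7.85 in WT and 7.56 and 8.15 in E2AKO, while HEBKO gave 8.86 and 8.09, and DKO gave 9.80, 9.43 and 9.77. All 3 DKO arrays lay above the other 7, of which HEBKO 1 was the highest. The rise in DKO was 1.79 ± 0.20, or 3.46-fold (limma adjusted p = 9.89e-05). Ikbke, a kinase that phosphorylates interferon regulatory factors, rose by 1.09 ± 0.11, or 2.13-fold (4.75e-05). Mavs, the adaptor of the RNA sensors, gave 0.31 ± 0.09 (0.0442) and lost its call in 15 of 21 alternatives. Irf7 (0.51 ± 0.21, adjusted p = 0.141) and Myd88 (0.37 ± 0.12, 0.0605) were not called.

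Of the interferon genes listed, Ifnb1, Ifna4 and Ifng were dim in all 10 arrays. Ifnl2, a lambda interferon gene, was never dim and gave -0.21 ± 0.14 in DKO (limma adjusted p = 0.373). Of the 18 tested interferon receptors and proximal signalling genes, 5 rose, 2 fell and the median was 0.04. Ifngr1, the ligand-binding chain of the interferon gamma receptor, fell by 0.75 ± 0.15 (limma adjusted p = 0.00587), and Socs1, its feedback inhibitor, fell by 0.67 ± 0.09 (0.000493). Irf1, an activator of interferon-responsive genes, rose by 0.57 ± 0.10 (0.0027), a call lost when the mean of its probe sets was used. Il10rb, a chain shared by several cytokine receptors, rose by 0.52 ± 0.12 (0.0149), a call lost without WT 3, and Ifngr2 and the kinase gene Jak1 rose by 0.48 ± 0.10 and 0.44 ± 0.09. Irf9, the DNA-binding subunit of the type I interferon response complex, gave 0.63 ± 0.19 (0.0456), a call lost in 11 of 21 alternatives.

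Among interferon-stimulated genes outside the family, 24 were tested, 3 rose, none fell and 21 were not called, a share of rises near that background. Their median difference was 0.31 in DKO, 0.06 in HEBKO and -0.07 in E2AKO. Ifit1, an RNA-binding antiviral protein, read 5.75, 5.90 and 5.70 in WT, all dim, and 8.08, 6.60 and 6.22 in DKO. It was dim as well in E2AKO, at 5.95 and 5.80, and in HEBKO, at 5.91 and 5.82. Ifit1 thus passed the filter only through DKO, and the 3 rises of this list include it. DKO 1 was well above the other DKO arrays, and the difference was 1.18 ± 0.35 (limma adjusted p = 0.0419). The call was lost when any single WT, E2AKO or HEBKO array was left out. Without DKO 1 the difference was 0.62, still called. Oas3, which makes the activator of RNase L, rose by 0.58 ± 0.13 (0.013), a call lost without WT 3, and Ifi35 rose by 0.57 ± 0.10 (0.0033). Irgm1 (0.67 ± 0.21, adjusted p = 0.0559) and Rtp4 (0.62 ± 0.36, 0.32) were not called. Leaving out single WT or DKO arrays moved the number of genes called in this list between 1 and 6.

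Family proteins such as those of Ifi202b and Ifi204 are known to bind cell cycle regulators. Of 10 tested partners 1 rose and 1 fell, near the background in both directions, and the median was -0.08. These were Myc by 1.25 ± 0.20 (limma adjusted p = 0.00136) and E2f4, a repressor partner of pocket proteins, by -0.87 ± 0.20 (0.0139). The E2f4 call was lost without WT 1, DKO 2 or DKO 3. Cbfb (-0.12 ± 0.09, adjusted p = 0.496) and Brca1 (-0.11 ± 0.16, 0.749) were not called. In HEBKO and in E2AKO none of the tested genes of these pathway lists was called.

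**Figure D4:**
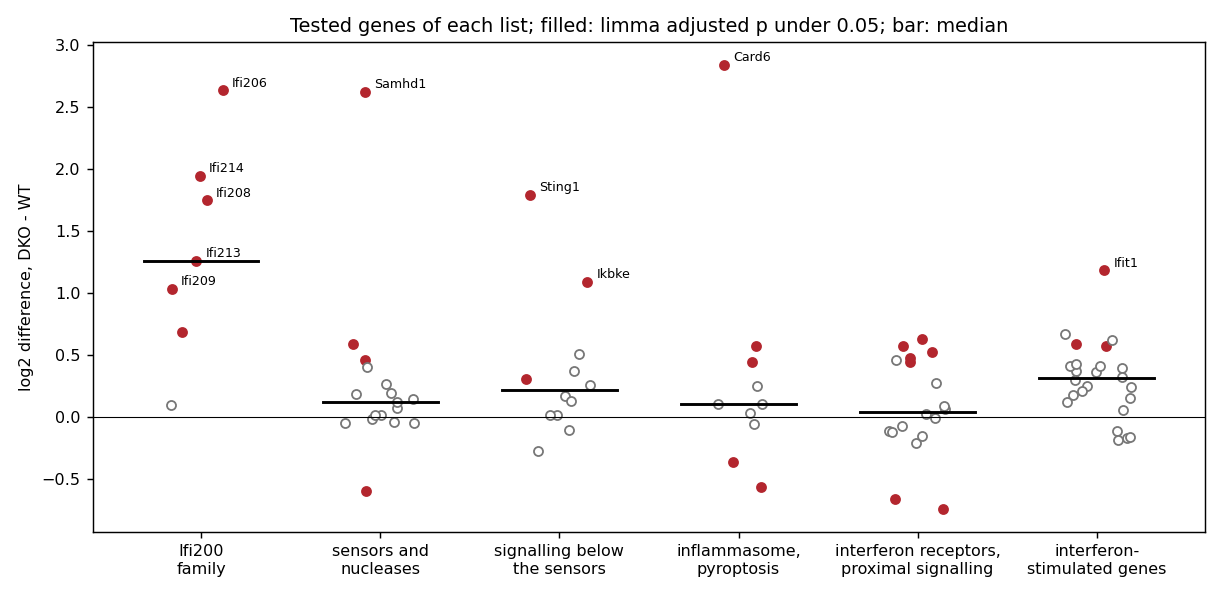
Log2 difference of DKO from WT for the tested genes of the family and of 5 pathway lists; filled points have a limma adjusted p under 0.05 and the bar is the list's median. The family median over its 7 tested members is 1.26 (2 of them passed the filter only through DKO), while the other lists have medians between 0.04 and 0.31 with a few genes far above.

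Markers of cell stage moved in the same comparison. Of 9 tested DP markers 7 fell in DKO, with a summed intensity of 23194 to 27543 against 47432 to 50093 in WT. Of 9 tested markers of mature single-positive T cells 8 rose and Cd69 fell, with sums of 5176 to 7096 against 1496 to 1782. In HEBKO these sums were 33751 to 45163 and 1458 to 2442, and in E2AKO 46578 to 48133 and 1507 to 1765. None of either list was dim in every array, and the part of this shift in the family's rise was not tested.

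No tested marker of other cells that express Ifi200 genes was called higher in DKO. Of 13 myeloid markers 10 were dim in every array, among them Lyz2, Csf1r, Itgax, Adgre1 and Cd14. The list's summed intensity was 671 to 728 in DKO against 761 to 849 in WT, and of its 3 tested genes 1 fell. For B cells the sums were 487 to 552 against 625 to 653, with Cd79a, Ms4a1, Ebf1 and Cd22 dim throughout, and 1 of 4 tested genes fell. For plasmacytoid dendritic cells they were 744 to 859 against 806 to 844, so the DKO range passed that of WT at both ends. Siglech was dim throughout and 0 of 4 tested genes were called. For NK cells they were 383 to 490 against 441 to 524, with Ncr1, Klrb1c, Eomes, Klra8 and Klri2 dim throughout and 0 of 2 called. Of 3 gamma delta T cell and 2 erythroid markers tested none was called, and of 6 thymic epithelial markers 2 fell. In lists of mostly dim probe sets, such as the myeloid and NK lists, the sums cannot show that such cells were absent.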

How the data were processed

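RNA of 10 sorted DP samples was hybridised to 1 Affymetrix array each. The deposited values are linear intensity values per probe set, made by the authors with RMA, per the submitters' processing notes; the RMA version and the genome build are not given in the sources used here. They were turned to log2 with a pseudocount of 0. Gene symbols came from the platform annotation, and 1321 of 34760 probe sets with several symbols and 11799 with none were left out. Family members, gene lists and motifs were chosen with earlier results of these data known. Named genes were all members, Tcf3 and Tcf12, up to 4 tested genes per pathway list with the largest DKO difference, the 3 closest patterns per riser, and the 5 neighbours on each side. Other called or dim genes and the example markers were named after their values were seen.

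All 10 arrays entered 1 fit, with a mean for each genotype and 7 contrasts (limma 3.58.1, lmFit and eBayes, R 4.3.3, residual degrees of freedom 6). The p-values are two-sided and adjusted by the Benjamini-Hochberg method over 13138 genes, with a threshold of 0.05. The spread of all groups is pooled because 2 groups hold 2 mice each, and the number of arrays limits the precision. Each array is a separate mouse, per the labels. Median intensity ran from 92.6 to 98.6 over the arrays. The steps were tested on simulated data. Motifs and promoter identities were computed in Python 3.11.15 with Biopython 1.88. Alternatives covered the filter, normalisation, probe sets, moderation, array weights, arrays fitted, a replicate block, sex as a covariate and single arrays left out. Sex was inferred from the arrays, as female where Xist read above the mean of Y-linked genes. By this reading females were 1 of 3 mice in WT, 1 of 2 in E2AKO, 1 of 2 in HEBKO and 2 of 3 in DKO.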

Additional observations from a re-analysis of the deposited data

Results flagged for a closer look

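With both factors lost, 4 of the 7 tested family genes departed from the sum of the single losses, by a limma interaction test. Among all tested genes 0.510% were called positive. Without the filter it was 4 of 10, against 0.311% of all genes. The departure was 2.17 ± 0.31 (SE, log2) for Ifi206, 1.68 ± 0.19 for Ifi214, 1.91 ± 0.33 for Ifi213 and 2.58 ± 0.35 for Ifi208. All 7 arrays outside DKO were dim for Ifi214, and 6 of the 7 were for Ifi213. No genotype holds 4 mice, so no array was tested as standing apart from its group.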

How the results depend on the processing

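Each share in this paragraph is that of all genes tested under the same setting that were called higher. The count of 6 family genes higher in DKO than in WT was 4 of 4 tested under a filter at the 60th percentile (12.1%). Single arrays left out gave 5 to 6 (4.14% to 9.56%). With the replicate number as a block it remained 6 (10.9%). DKO 1 and WT 1 left out together, chosen after seeing the data, gave 5, against a share of 4.12% (Ifi203 0.31, limma adjusted p = 0.123). Among the pathway genes, the calls of Ddx58, Rnaseh2a, Casp8, Nlrc3, Pycard and Il10rb were among those lost under that setting. The 60th-percentile filter, which tests fewer members, gave 3 against HEBKO (3.12%), 3 against E2AKO (7.4%) and 2 for the interaction (0.691%). Without E2AKO 1 the interaction count was 2 (0.168%), and single arrays left out gave 2 to 4 (0.168% to 0.66%). No family gene was called in a single knockout under any alternative run. In HEBKO the share was 0.274% in the main fit, 2.74% without WT 2 and 0.00763% without WT 3. In E2AKO the main fit called 0 genes in all and the block called 1. With so few calls among all genes, the absence of family calls says little.

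Signs turned for differences that were never called, and the cause was not tested. Ifi209 in E2AKO was -0.024 after renewed quantile normalisation and -0.042 with the block. Ifi203 in HEBKO was 0.049 with arrays shifted to 1 median and 0.028 with the block. With array weights Aim2 in DKO was -0.058 and Ifi203 in E2AKO was -0.021. Without DKO 1 and WT 1, Aim2 in DKO was -0.0502, Ifi209 in E2AKO -0.0044, Ifi203 in E2AKO -0.087 and Rtp4 in DKO -0.073. Over single arrays left out the ranges were -0.070 to 0.17 for Aim2 in DKO, -0.55 to 0.058 for Aim2 in E2AKO, -0.19 to 0.21 for Ifi209 in E2AKO and -0.034 to 0.23 for Ifi209 in HEBKO. They were -0.087 to 0.23 for Ifi203 in E2AKO, -0.21 to 0.11 for Ifi203 in HEBKO, -0.0059 to 0.23 for Ifi214 in HEBKO, -0.40 to 0.075 for Ifi213 in HEBKO and -0.038 to 0.41 for Ifi206 in E2AKO. For Brca1 in DKO they were -0.22 to 0.016.

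The labels tie no mice together by replicate number. Deviations from the group mean of same-numbered mice correlated positively in 11 of 13 pairs (-0.29 to 0.48, median 0.15), short of every pair. WT 3 correlated best with E2AKO 2. In a group of 2 mice the deviations are mirror images, so the pairs are not independent. The median of -0.15 for other pairs is largely set by this arithmetic. These values therefore cannot decide whether the numbers tie mice together. The block raised all genes called in DKO against WT from 1786 to 2321, and array weights raised them to 3655. Interferon-stimulated genes called rose from 3 to 6 with the block and 9 with array weights. Dim groups may limit the size of the differences of Ifi214, Ifi213, Ifi206 and Ifi208.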
